A study of Mus musculus with 27 samples.

Results

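The Slit, Robo and netrin pathway genes described here are 10 mouse genes, namely the ligand genes *Slit1*, *Slit2*, *Slit3* and *Ntn1* and the receptor genes *Robo1*, *Robo2*, *Dcc*, *Neo1*, *Unc5b* and *Unc5c*. They were followed through an in vitro differentiation of mouse embryonic stem cells toward Sertoli-like cells, the supporting cells of the testis. The set was chosen because *Unc5c* showed the largest reliable rise from EpiSC to M, so its values in that step chose it and are given here as a description, with no test. The genes were matched by symbol to the Ensembl gene identifiers of the expression tables, and all 10 of 10 were found among 48795 listed genes. All 10 also passed the low-count filter, which kept 20839 genes.

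Slit proteins are secreted ligands that bind Robo receptors, and the pair is best known for repelling growing axons and migrating cells. Netrin-1, the product of *Ntn1*, is a secreted laminin-related guidance cue that attracts cells through DCC and neogenin (*Neo1*) and repels them, or in some cells controls their survival, through the UNC5 receptors. In the early kidney, which arises from the intermediate mesoderm as the gonad does in part, *Slit2* and *Robo2* are known for restricting where the ureteric bud forms.

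RNA was sequenced from 9 groups of 3 libraries, 27 in all, and the totals were 35923040 to 84876603 expected counts per library. All groups shared the strain F1:C57BL/6 x CBA and the genotype Tesco-CFP; R26-rtTA XY, and all came from clone 7, so the whole series is a model from 1 clone. Tesco-CFP is a fluorescent reporter driven by a Sertoli cell enhancer of *Sox9*, and R26-rtTA allows doxycycline-inducible expression. ESC are the embryonic stem cells, routinely kept in 2i/LIF, and EpiSC are their epiblast-like derivatives after 60 hours in activin A (20 ng/ml), bFGF (12 ng/ml) and 1% knockout serum replacement. M denotes early mesoderm after 36 hours in bFGF (20 ng/ml), the PI3 kinase inhibitor LY294002 (10 μM) and BMP4 (10 ng/ml). IM1 to IM5 are 5 media given after M for 3.5 days in the search for cells of the intermediate mesoderm, all with bFGF (5 ng/ml) and BMP4 (20 ng/ml). IM1 had nothing more, IM3 had retinoic acid (RA, 100 nM), and IM4 had RA and CHIR99021 (0.3 μM), a GSK3 inhibitor that activates Wnt signalling. IM2 had RA and Activin A (10 ng/ml), and IM5 had RA, Activin A and CHIR99021. iSLC are induced Sertoli-like cells, made by lentiviral *Nr5a1* and *Dmrt1* (24 hours of virus, then 4 days of doxycycline at 2 μg/ml in Sertoli medium) and sorted for CFP, so they differ from IM3 in the factors, the medium, the time and the sort at once, and these cannot be told apart. Per the methods, Sertoli medium itself held Activin A, along with EGF, FSH, FGF9, a prostaglandin and testosterone. The comparison of iSLC with IM3 therefore also differs in Activin A. The titles number the libraries of a group 1 to 3, and the study calls them biological replicates. The labels do not say whether they were separate cultures, and p-values measure the spread between these libraries.

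The libraries carried the stage markers of their labels with some exceptions. The summed level of the 4 ESC markers was 498 to 514 TPM in ESC, that of the 4 EpiSC markers 769 to 784 TPM in EpiSC and that of the 4 M markers 772 to 862 TPM in M, each the highest of the 9 groups. The 5 IM markers were summed at 475 to 509 TPM in IM3 and 346 to 383 in IM4, but IM1 (83.5 to 97.4), IM2 (174 to 179) and IM5 (118 to 123) were below M (189 to 224) and iSLC (280 to 291). Of these markers, *Pax2* had mean levels of 0.0367 to 0.22 TPM over the IM groups, and *Lhx1* was at 56.5 TPM in M and 0.443 TPM in IM3. The 6 iSLC markers were at 312 to 356 TPM in iSLC, and most of that sum was the forced genes, *Nr5a1* at a mean of 93.8 TPM and *Dmrt1* at 213 TPM. The Sertoli hormone gene *Amh* was at 0.56 TPM there, and *Sox9* was lower in iSLC (24.8 TPM) than in the IM groups (38.4 to 56.9 TPM). Red blood cell genes (6 listed) split the groups: their sum was 11.7 to 91 TPM in ESC, 42.4 to 80 in M, 21.3 to 74.4 in IM3 and 30.8 to 72.1 in IM4, and between 1.57 and 4.54 TPM in every library of EpiSC, IM1, IM2, IM5 and iSLC, with 3 of the 6 genes at 0 in EpiSC and iSLC. Every comparison below except IM3 vs M, IM4 vs IM3 and IM5 vs IM2 crosses that split, and its part in the results was not tested.

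Positions are from GENCODE M21 on the build GRCm38. *Slit1* (ENSMUSG00000025020) lies at chr19:41600257-41743665 on the minus strand. *Slit2* (ENSMUSG00000031558) lies at chr5:47983138-48307733 on the plus strand. *Slit3* (ENSMUSG00000056427) lies at chr11:35121224-35708507 on the plus strand. *Robo1* (ENSMUSG00000022883) lies at chr16:72308306-73046095 on the plus strand. *Robo2* (ENSMUSG00000052516) lies at chr16:73891839-74411825 on the minus strand. *Ntn1* (ENSMUSG00000020902) lies at chr11:68209364-68400823 on the minus strand. *Neo1* (ENSMUSG00000032340) lies at chr9:58874687-59036441 on the minus strand. *Unc5b* (ENSMUSG00000020099) lies at chr10:60762593-60831581 on the minus strand. *Unc5c* (ENSMUSG00000059921) lies at chr3:141465216-141834924 on the plus strand. Exons of *Unc5c* overlap the gene Gm15688 on the other strand over 0.62% of their bases, and no exon base of the other 9 genes is shared with another gene.

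The sequence before the RefSeq start was held by the promoter table for 7 of the 10 genes, with 9 windows in all because *Robo2* has 3. *Slit1*, *Ntn1* and *Dcc* are not in the table. The windows of *Slit2*, *Robo2* and *Unc5b* are printed because the first 2 genes rose together in iSLC and *Unc5b* had the highest level of all 10 genes. Each run is 5′ to 3′ on the strand of its gene, read from RefSeq on GRCm38.p6, and ends at the base before the first annotated exon. Of *Slit2*, chr5:47982905-47983137 on the plus strand is shown, 233 bases. Of *Robo2*, chr16:74411826-74412075 on the minus strand is shown, and of *Unc5b*, chr10:60831582-60831831 on the minus strand, 250 bases each. Capitals mark the match to the E-box CAGCTG.
Slit2: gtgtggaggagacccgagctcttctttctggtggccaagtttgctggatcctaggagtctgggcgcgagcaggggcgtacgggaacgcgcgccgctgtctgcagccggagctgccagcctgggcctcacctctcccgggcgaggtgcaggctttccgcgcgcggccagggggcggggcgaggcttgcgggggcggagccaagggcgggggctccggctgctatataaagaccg
Robo2: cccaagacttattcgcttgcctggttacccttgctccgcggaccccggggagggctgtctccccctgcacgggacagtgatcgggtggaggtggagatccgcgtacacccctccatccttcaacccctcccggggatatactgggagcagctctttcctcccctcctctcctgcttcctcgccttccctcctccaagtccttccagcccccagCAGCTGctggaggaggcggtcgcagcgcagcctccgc
Unc5b: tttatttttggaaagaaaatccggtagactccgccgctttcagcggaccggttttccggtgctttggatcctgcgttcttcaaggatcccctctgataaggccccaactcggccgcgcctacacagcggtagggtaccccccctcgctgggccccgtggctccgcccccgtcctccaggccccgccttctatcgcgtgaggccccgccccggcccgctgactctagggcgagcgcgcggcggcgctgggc

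In the 250 bases before each RefSeq start, 5 motifs were searched on both strands. All 250 bases of the *Unc5c* window, 232 of the *Slit3* window and 17 of the *Slit2* window lie inside annotated exons, so they are not all upstream of the gene. The *Robo1* window (chr16:72662899-72663148, plus strand) touches no annotated exon but lies inside the span of the gene given above. AGGTCA, the half-site of nuclear receptors such as the one encoded by *Nr5a1*, was in 14.0% of the 32851 windows of all genes and in 0 of the 9 windows of these genes. GGTGTGA, a T-box half-site, was in 3.33% of all windows, CTTTGA, the TCF/LEF core, in 13.8%, and neither was in the 9 windows. The E-box CAGCTG, held by 13.0% of all windows, lay 37 to 32 bases before the *Robo2* start printed above, and AGATAA, the GATA motif, held by 9.99%, lay in another *Robo2* window. That window (chr16:75092771-75093020) and the third (chr16:75447294-75447543) lie outside the span of *Robo2* given above, on its upstream side. Which of the 3 starts is used in these cells was not examined. The motifs do not overlap one another in these windows. A window without a match says only that these letters are not in it. The GC content was 44.8% to 83.2%, and 8 of the 9 windows were above the median of all windows, 52.4%.

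**Figure D1:**
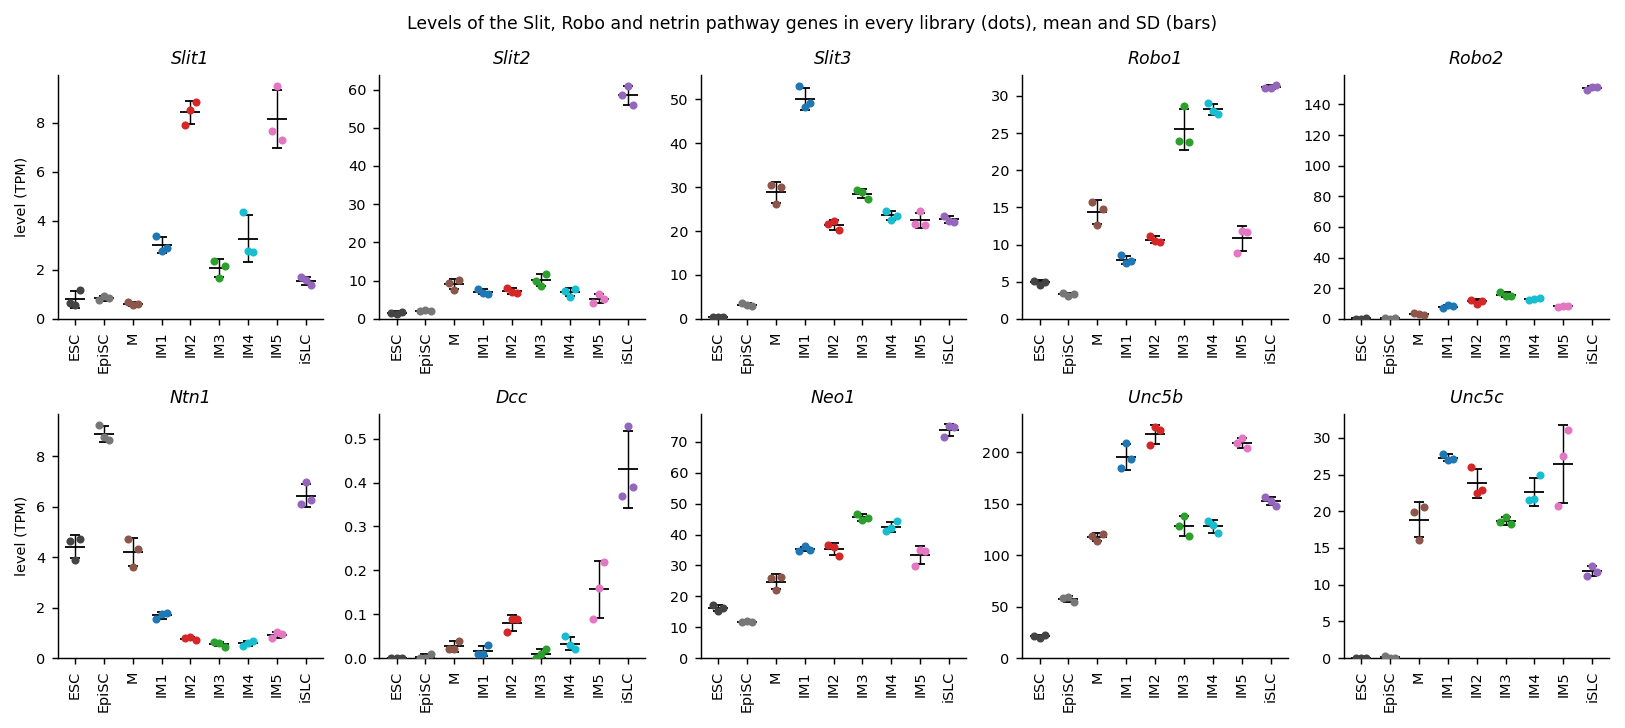
Level in TPM (linear axes from 0, a different scale in each panel) of the 10 genes in the 9 groups; each dot is a library, and the bars are the mean and SD of 3 libraries. *Slit2*, *Robo1*, *Robo2*, *Dcc* and *Neo1* were highest in iSLC, *Slit3* and *Unc5c* in IM1, *Slit1* and *Unc5b* in IM2, and *Ntn1* in EpiSC.

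The levels below are TPM as deposited, which account for gene length and so allow genes to be compared. Each group is given by its 3 libraries in the order of their numbers or by its mean ± SD (n = 3), and a group is called overlapping with another when the ranges of their 3 libraries overlap. In bulk samples fewer cells of a type and less RNA per cell cannot be told apart.

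Among the ligands, *Slit1* was low before the IM stage and highest in the media with Activin A. It was at 7.91, 8.51 and 8.85 TPM in IM2 and at 7.67, 9.51 and 7.30 TPM in IM5, which overlap each other and no other group. It was at 2.37, 1.65 and 2.16 TPM in IM3 and at 4.36, 2.75 and 2.72 TPM in IM4. These 2 groups do not overlap, and IM4 overlaps IM1 (3.01 ± 0.316). iSLC (1.55 ± 0.171) overlaps IM3 alone, and at the bottom ESC (0.797 ± 0.342) overlaps both EpiSC (0.843 ± 0.0950) and M (0.617 ± 0.0764). The highest group mean was 13.7 times the lowest.

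*Slit2* stood apart in iSLC. Its level there was 58.5, 60.9 and 55.96 TPM, and the next group, IM3, was at 10.02, 8.57 and 11.7 TPM. No other library of the series was above 11.65 TPM. M (9.07 ± 1.35) overlaps IM3, and IM2 (7.32 ± 0.721), IM1 (7.08 ± 0.664), IM4 (6.98 ± 1.04) and IM5 (5.24 ± 1.13) follow with each range reaching into the next. EpiSC (2.13 ± 0.0945) and ESC (1.60 ± 0.325) are below all of these and do not overlap each other.

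*Slit3* was highest in IM1, at 53.02, 48.3 and 49.1 TPM, clear of all other groups. M was at 30.4, 26.1 and 29.98 TPM and IM3 at 29.4, 28.98 and 27.3 TPM, and these 2 overlap. IM4 (23.6 ± 1.03), iSLC (22.6 ± 0.752), IM5 (22.5 ± 1.71) and IM2 (21.3 ± 1.09) form a run of overlapping ranges below them. In EpiSC it was at 3.62, 3.27 and 2.82 TPM and in ESC at 0.350, 0.490 and 0.490 TPM, so that the highest mean was 113 times the lowest.

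*Robo1*, a Slit receptor, was at 31.1, 31.03 and 31.4 TPM in iSLC, just above IM4 at 29.02, 27.96 and 27.6 TPM. IM3 was at 23.96, 28.7 and 23.8 TPM and overlaps IM4. IM5 was at 8.90, 11.8 and 11.8 TPM and IM2 at 11.2, 10.5 and 10.3 TPM, so that the media with RA fall into a high pair without Activin A and a low pair with it. M (14.4 ± 1.60) lies between the pairs, and IM1 (7.92 ± 0.570), ESC (4.90 ± 0.267) and EpiSC (3.29 ± 0.162) are below them without overlap.

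*Robo2*, the other Slit receptor, had the widest range of the 10 genes where both ends were detected. In iSLC it was at 149.8, 151 and 152 TPM, and in IM3, the next group, at 17.6, 15.1 and 14.9 TPM. IM4 (13.2 ± 0.650) and IM2 (11.4 ± 1.31) follow without overlap, IM5 (8.12 ± 0.583) and IM1 (8.07 ± 1.02) overlap each other, and M was at 3.71, 3.24 and 2.72 TPM. EpiSC and ESC overlap at means of 0.313 and 0.260 TPM, on 34 to 54 and 7 to 25 expected counts per library. The highest mean was 581 times the lowest, a ratio that rests on those few ESC counts.

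The netrin-1 gene *Ntn1* followed another order, high in the first stages and lowest in the IM media with RA. It was at 9.24, 8.77 and 8.65 TPM in EpiSC and at 4.64, 3.90 and 4.72 TPM in ESC. M was at 4.71, 3.61 and 4.33 TPM and overlaps ESC. IM1 (1.70 ± 0.137) was above IM5 (0.917 ± 0.127) and IM2 (0.770 ± 0.0557), which overlap. IM4 was at 0.480, 0.620 and 0.670 TPM and IM3 at 0.640, 0.590 and 0.460 TPM, overlapping each other, on 61 to 129 expected counts per library. In iSLC it was back at 6.09, 6.96 and 6.28 TPM, between ESC and EpiSC and overlapping neither.

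Of the netrin receptors, *Dcc* was hardly detected. It had 0 expected counts in all 3 ESC libraries, which allows up to 3 counts in each for counting error alone, and 0, 1 and 2 counts in IM3. The highest group was iSLC, with 75, 93 and 69 counts (0.370, 0.530 and 0.390 TPM). IM5 followed with 20, 29 and 39 counts and IM2 with 10, 14 and 17, and EpiSC, M, IM1 and IM4 had 0 to 7 counts per library. Its mean normalized count over all libraries was 14.4, far under the minimum of 100, and no fold change is given for it.

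*Neo1*, the gene of the DCC relative neogenin, was present in every group. It was at 71.7, 75.3 and 74.8 TPM in iSLC and at 46.6, 44.7 and 45.3 TPM in IM3. IM4 was at 41.1, 42.2 and 44.3 TPM, just below IM3 and not overlapping it. In normalized counts the 2 groups do overlap, at 10170 to 11347 in IM4 and 11075 to 11328 in IM3. IM1 (35.4 ± 0.727), IM2 (35.2 ± 1.91) and IM5 (33.3 ± 2.88) overlap in turn, and M (24.8 ± 2.44), ESC (16.3 ± 1.01) and EpiSC (11.8 ± 0.204) follow without overlap. Its range was the narrowest of the 10, a factor of 6.24 between the highest and the lowest mean.

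*Unc5b*, a repulsive netrin receptor, had the highest mean level of the 10 genes in each of the 9 groups, and in iSLC its range overlapped that of *Robo2*. It was at 21.2, 19.6 and 22.5 TPM in ESC and at 58.1, 59.6 and 54.3 TPM in EpiSC. M was at 119, 113 and 120.2 TPM, so that the first 3 stages are in steps without overlap. IM2 was at 207, 224 and 221 TPM, and it overlaps IM5 (209 ± 4.97), which overlaps IM1 (196 ± 12.6). IM3 was at 128, 138 and 119 TPM and IM4 at 133, 129 and 121 TPM, overlapping each other and clear of the other 3 media, and IM3 also overlaps M. iSLC, at 156, 153 and 148 TPM, lies between the 2 sets and overlaps neither.

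*Unc5c*, the receptor that chose the set, was near the floor in the pluripotent stages, at 0.07, 0.05 and 0.05 TPM in ESC and 0.240, 0.07 and 0.05 TPM in EpiSC, on 10 to 28 expected counts per library. In M it was at 19.8, 16.1 and 20.6 TPM. The group means then stayed between 18.7 and 27.3 TPM through the IM media, with IM1 at 27.8, 26.97 and 27.1 TPM, IM5 at 20.8, 27.5 and 31.1 TPM and IM2 (23.8 ± 1.98) and IM4 (22.7 ± 1.91) overlapping in turn. The 3 IM5 libraries spread more widely than those of any other group, and IM3 (18.7 ± 0.516) overlaps M. iSLC was lower, at 11.2, 12.6 and 11.7 TPM, and overlaps no other group.

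**Figure D2:**
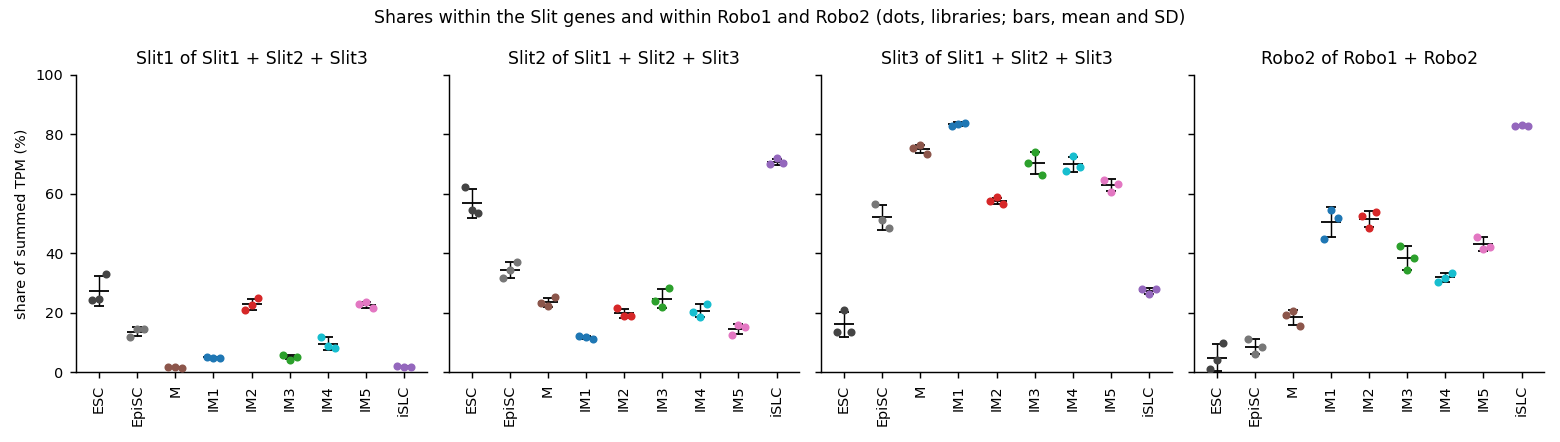
Share in percent of the summed TPM of *Slit1*, *Slit2* and *Slit3* held by each, and of *Robo1* plus *Robo2* held by *Robo2*, in the 9 groups; dots are libraries and bars the mean and SD of 3. *Slit2* held 69.9% to 71.9% and *Robo2* 82.8% to 83.0% in the iSLC libraries.

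Set side by side in TPM, the Slit and Robo genes differed in make-up along the series. *Slit2* held 56.7% ± 4.9 of the summed Slit level in ESC, *Slit3* held 74.9% ± 1.4 in M and 83.3% ± 0.66 in IM1, and *Slit2* again led in iSLC at 70.7% ± 1.1 (SD, n = 3 each). The sum itself was 2.84 ± 0.67 TPM in ESC, 38.5 ± 3.7 in M, 60.2 ± 3.5 in IM1, 40.7 ± 1.3 in IM3 and 82.6 ± 2.8 in iSLC. *Slit1* reached 22.8% ± 1.9 in IM2 and 22.7% ± 0.97 in IM5, against 5.05% ± 0.76 in IM3. *Robo2* held 18.4% ± 2.6 of the summed Robo level in M, 38.4% ± 4.0 in IM3 and 82.9% ± 0.11 in iSLC. The level of *Unc5b* was 6.45 ± 0.29 times that of its ligand gene *Ntn1* in EpiSC, 231 ± 29 times in IM3 and 23.7 ± 1.9 times in iSLC. These shares are descriptions without a test.

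Differences between groups were tested with the quasi-likelihood test of edgeR in 1 model over the 27 libraries, with adjusted p-values by Benjamini-Hochberg over 20839 genes. A gene is said to rise or fall where its adjusted p was at most 0.01, its fold change at least 2 and its mean normalized count at least 100 over all libraries and in 1 of the groups compared. All fold changes below are on this count scale, which does not adjust for effective gene length.

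**Figure D3:**
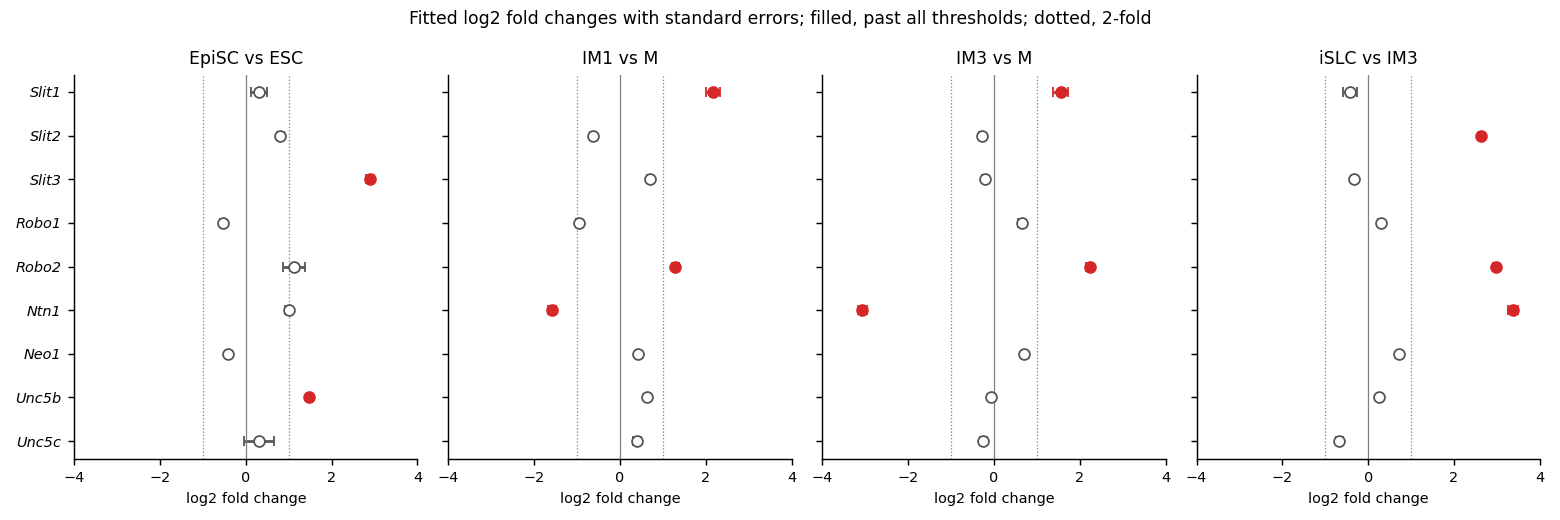
Fitted log2 fold change (x axis) with its standard error for 9 of the genes (all but *Dcc*) in 4 comparisons; filled red points passed all thresholds, open points did not, and dotted lines mark a 2-fold change. *Slit2*, *Robo2* and *Ntn1* rose in iSLC vs IM3, where no gene of the 9 fell past the thresholds.

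From ESC to EpiSC, the exit from naive pluripotency, 2 of the 10 genes rose and 0 fell, beside 8.07% of all genes past the thresholds in either direction. *Slit3* rose (log2 fold change 2.89, SE 0.097, adjusted p = 7.56e-19) and so did *Unc5b* (1.48, SE 0.058, adjusted p = 1.49e-17). *Ntn1* was 1.99-fold higher (1.00, SE 0.085, adjusted p = 1.22e-10), just under the fold minimum, and it passed in 9 of 17 alternatives, the length offset (1.05) and leaving out ESC replicate 1 or 3 or EpiSC replicate 2 or 3 (1.01 to 1.03) among them. Of the 9, 1 had no fold minimum, the only limit *Ntn1* had missed, so it had to pass there. With a GC offset *Ntn1* was at 0.60. *Robo2* had a value of 1.13, SE 0.26, adjusted p = 0.000484 but too few counts in both groups. *Slit2* (0.80, SE 0.084, adjusted p = 6.61e-09), *Robo1* (-0.53, SE 0.078, adjusted p = 1.69e-06) and *Neo1* (-0.42, SE 0.047, adjusted p = 1.59e-08) differed by less than 2-fold, and *Slit1* (0.31, SE 0.19, adjusted p = 0.149) and *Unc5c* (0.31, SE 0.35, adjusted p = 0.477) did not pass the test. The red blood cell genes were summed at 1.57 to 2.31 TPM in EpiSC and 11.7 to 91 TPM in ESC, the neuron genes at 43.6 to 44.6 and 132 to 133 TPM. Most of the neuron sum in ESC was *Stmn2* (86.1 TPM, against 9.9 in EpiSC) and *Tubb3* (36.2 against 18.7 TPM). Against that sum, *Snap25* (5.06 against 1.26 TPM), *Elavl3* (2.93 against 1.63 TPM), *Map2*, *Dcx* and *Rbfox3* were higher in EpiSC. The part of these cell types in this step was not tested.

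From EpiSC to M, the step that chose the set, the fitted values are a description and share the EpiSC libraries with the comparison above. *Unc5c* was higher by a log2 fold change of 8.10 (SE 0.15), a 274-fold difference against a group with 21 to 28 counts per library. *Robo2* (3.59, SE 0.13), *Slit3* (3.14, SE 0.068), *Slit2* (2.30, SE 0.072) and *Robo1* (2.06, SE 0.077) were higher too. *Neo1* (1.00, SE 0.047) and *Unc5b* (0.97, SE 0.056) were about 2-fold higher, *Slit1* was at -0.37 (SE 0.18) and *Ntn1* at -1.09 (SE 0.084). With a GC offset *Ntn1* was at -0.54 and *Unc5b* at 1.21. At the thresholds above, 5 of the 10 were higher and 1 lower, beside 14.5% of all genes; nothing is read from this count, since the genes were chosen on this step.

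From M to the IM media, *Slit1* and *Robo2* rose and *Ntn1* fell in both media compared. In IM1 vs M, 2 of the 10 rose and 1 fell, beside 15.7% of all genes. *Slit1* rose 4.49-fold (2.17, SE 0.17, adjusted p = 8.65e-12), *Robo2* rose 2.45-fold (1.29, SE 0.085, adjusted p = 3.15e-13) and *Ntn1* fell 3.00-fold (-1.58, SE 0.091, adjusted p = 1.65e-14). *Robo1* was 1.95-fold lower (-0.96, SE 0.073, adjusted p = 5.28e-12) and passed the fold minimum without M replicate 2 or without IM1 replicate 1. *Slit3* (0.69, SE 0.059, adjusted p = 7.25e-11), *Unc5b* (0.63, SE 0.056, adjusted p = 1.13e-10), *Unc5c* (0.40, SE 0.085, adjusted p = 0.000163) and *Neo1* (0.41, SE 0.046, adjusted p = 8.72e-09) were higher by less than 2-fold, and *Slit2* (-0.63, SE 0.066, adjusted p = 2.94e-09) was lower. The summed red blood cell genes were at 42.4 to 80 TPM in M and 3.06 to 4.54 TPM in IM1, the 8 endothelial genes at 115 to 126 TPM in M and 308 to 312 TPM in IM1, and the 6 cardiac muscle genes at 9.04 to 11.8 TPM in M and 131 to 165 TPM in IM1. Most of the endothelial sum in M was *Egfl7* (61.4 TPM, and 144 in IM1) and *Kdr* (58.4 TPM). Against the sum, *Kdr* was lower in IM1, at 38.4 TPM. The part of these cell types was not tested.

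In IM3 vs M, which shares the M libraries with IM1 vs M, 2 of the 10 rose and 1 fell, beside 14.9% of all genes. *Robo2* rose 4.70-fold (2.23, SE 0.085, adjusted p = 2.81e-18) and *Slit1* rose 2.93-fold (1.55, SE 0.18, adjusted p = 1.53e-08). *Ntn1* fell 8.42-fold (-3.07, SE 0.11, adjusted p = 4.48e-19), the largest fall of any of the 9 genes other than *Dcc* in the comparisons tested. *Robo1* (0.64, SE 0.071, adjusted p = 1.02e-08) and *Neo1* (0.69, SE 0.046, adjusted p = 3.51e-13) were higher by less than 2-fold. *Unc5c*, at -0.25, SE 0.086, adjusted p = 0.0135, and *Unc5b*, at -0.06, SE 0.056, adjusted p = 0.33, did not pass the test, and the *Unc5c* libraries of IM3 lay within the range of those of M in TPM but below them in normalized counts (4766 to 5344 against 5459 to 6560). *Slit2* (-0.29, SE 0.066, adjusted p = 0.000367) and *Slit3* (-0.21, SE 0.06, adjusted p = 0.00312) were also within 2-fold of M. The 6 red blood cell genes were summed at 21.3 to 74.4 TPM in IM3 and 42.4 to 80 TPM in M. The cardiac muscle genes were at 233 to 465 TPM in IM3 and 9.04 to 11.8 TPM in M and the endothelial genes at 158 to 186 and 115 to 126 TPM. Against the endothelial sum, *Kdr* was lower in IM3 (18.8 against 58.4 TPM). The part of these cell types in IM3 vs M was not tested.

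**Figure D4:**
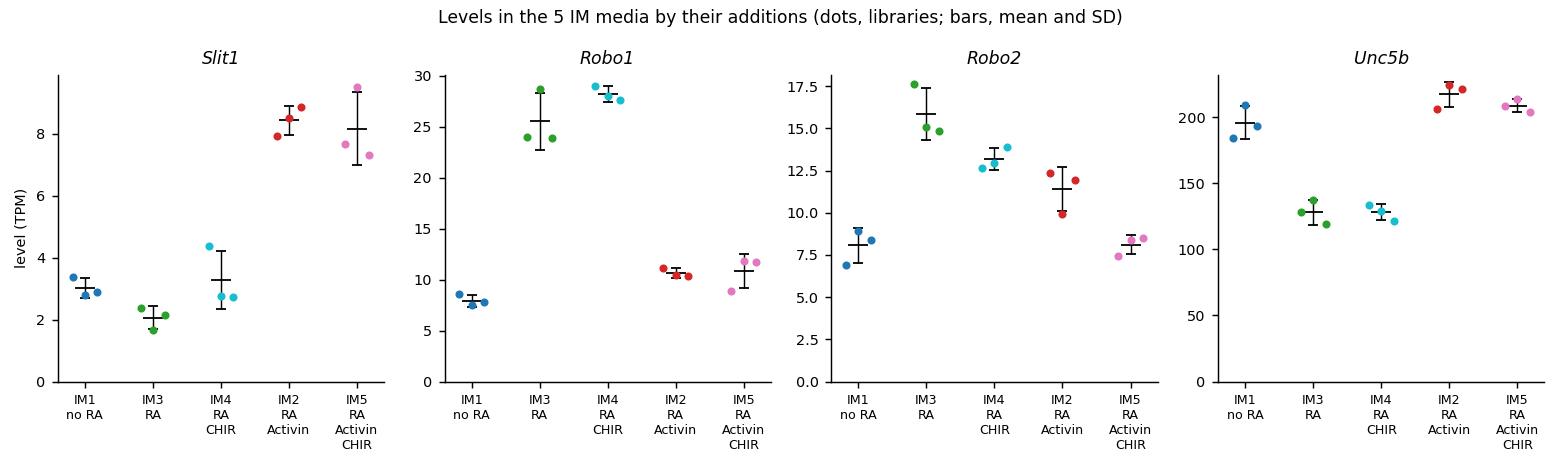
Level in TPM (linear axes from 0) of *Slit1*, *Robo1*, *Robo2* and *Unc5b* in the 5 IM media, ordered by what was added to bFGF and BMP4; RA is retinoic acid, Activin is Activin A and CHIR is CHIR99021. Dots are libraries, bars the mean and SD of 3; *Slit1* was higher and *Robo1* lower in both media with Activin A than in IM3 and IM4.

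The media differ by 1 addition at a time, which lets each addition be compared. For RA, IM3 against IM1, 1 of the 10 rose and 1 fell, beside 6.34% of all genes. *Robo1* rose 3.04-fold with RA (1.60, SE 0.073, adjusted p = 7.76e-16) and *Ntn1* fell 2.81-fold (-1.49, SE 0.11, adjusted p = 1.91e-11). *Robo2* was 1.92-fold higher (0.94, SE 0.078, adjusted p = 1.07e-10), and passed the fold minimum without IM1 replicate 2. *Slit3* was 1.86-fold lower (-0.90, SE 0.06, adjusted p = 1.54e-12), as the values by library above show. *Unc5b* (-0.70, SE 0.056, adjusted p = 6.2e-11), *Unc5c* (-0.65, SE 0.085, adjusted p = 4.56e-07) and *Slit1* (-0.62, SE 0.15, adjusted p = 0.0012) were also lower by less than 2-fold, and *Slit2* (0.34, SE 0.067, adjusted p = 0.000117) and *Neo1* (0.28, SE 0.045, adjusted p = 9.41e-06) higher by less than 2-fold. In IM3 the summed levels of the 6 red blood cell genes and of the 6 cardiac muscle genes (233 to 465 TPM, against 131 to 165 TPM in IM1) were higher. That of the endothelial genes was lower (158 to 186 against 308 to 312 TPM). Against these sums, the cardiac gene *Nppa* was lower in IM3 (mean 0.357 against 1.65 TPM). The endothelial genes *Tek* (26.8 against 17.8 TPM) and *Emcn* (2.33 against 1.37 TPM) were higher there. The part of these cell types was not tested.

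Activin A was added in the absence of CHIR99021 (IM2 against IM3) and in its presence (IM5 against IM4), in separate libraries. *Slit1* rose and *Robo1* fell in both, and no other gene of the 10 passed the thresholds, beside 3.80% of all genes in the first comparison and 4.09% in the second. *Slit1* rose 4.06-fold in IM2 (2.02, SE 0.15, adjusted p = 3.31e-11) and 2.54-fold in IM5 (1.34, SE 0.14, adjusted p = 1.74e-08). *Robo1* fell 2.36-fold in IM2 (-1.24, SE 0.073, adjusted p = 3.66e-13) and 2.54-fold in IM5 (-1.35, SE 0.072, adjusted p = 6.03e-14). In both comparisons the 3 libraries of a medium lay on 1 side of those of the other for both genes. *Unc5b* was higher by less than 2-fold in both (1.72-fold, 0.78, SE 0.056, adjusted p = 1.61e-11, and 1.68-fold, 0.75, SE 0.056, adjusted p = 3.05e-11), and *Robo2* was lower in both (-0.52, SE 0.077, adjusted p = 4.04e-06 and -0.89, SE 0.078, adjusted p = 7.46e-10). Over 17 alternatives, by edgeR or DESeq2, the *Robo2* values were -0.59 to -0.41 and -0.94 to -0.63. Their adjusted p reached 0.301 and 0.101, so the test of *Robo2* depends on the processing. *Neo1* was 1.28-fold and 1.25-fold lower. In IM2 and in IM5, *Slit2* was at -0.35 and -0.36, *Slit3* at -0.39 and -0.01, *Unc5c* at 0.39 and 0.30 and *Ntn1* at 0.31 and 0.54 on the log2 scale. *Dcc* had 10 to 17 counts in IM2 against 0 to 2 in IM3, and 20 to 39 in IM5 against 3 to 6 in IM4.

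Whether the Activin A difference itself changed with CHIR99021 was tested as an interaction. By edgeR, 0 of the 10 genes passed, beside 0.0336% of all genes, and the Wald test of DESeq2 called 0. By edgeR 3 of the 10 had an unadjusted p under 0.05, beside 2191 of all 20839 genes. The largest interaction value of the 9 genes other than *Dcc* was that of *Slit1* (-0.68, SE 0.2, adjusted p = 0.169), whose rise was 4.06-fold without and 2.54-fold with CHIR99021, and the lowest p that of *Slit3* (0.38, SE 0.085, adjusted p = 0.0328). The neuron markers, 10 genes, were summed at 45.7 to 55.3 TPM in IM2 and 40.7 to 49.2 TPM in IM5, against 25.2 to 28.1 in IM3 and 22.9 to 27.6 in IM4, where *Tubb3* (44.3 and 39.3 TPM in the media with Activin A) was most of the sum and 1 of the 10 genes was at 0 in IM2, IM4 and IM5. The red blood cell genes, at 1.62 to 3.04 TPM in the media with Activin A, were higher in IM3 and IM4 as given above, and the cardiac muscle genes were at 121 to 152 TPM in IM2, 51.8 to 61.5 in IM5 and 117 to 146 in IM4. Against the neuron sum, *Snap25*, *Elavl4* and *Dcx* had lower means in IM2 than in IM3 and in IM5 than in IM4. The part of these cells was not tested.

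Few genes of any kind were called for CHIR99021 at 0.3 μM. In IM4 vs IM3, by edgeR, 0 of the 10 genes were called, beside 0.101% of all genes. There 7 of the 10 had an unadjusted p under 0.05, beside 2517 of all 20839 genes. In IM5 vs IM2, 0 of the 10 were called, beside 0.235%, and 6 of the 10 had an unadjusted p under 0.05, beside 4586 of all 20839. The Wald test of DESeq2 called 0 in both. *Slit2* was lower by less than 2-fold with CHIR99021 in both backgrounds (-0.43, SE 0.068, adjusted p = 0.000364 and -0.44, SE 0.068, adjusted p = 9.18e-05), and *Robo2* was at -0.23, SE 0.077, adjusted p = 0.141 in the first and -0.60, SE 0.079, adjusted p = 1.13e-05 in the second. Over the alternatives, by edgeR or DESeq2, the adjusted p reached 0.0432 and 0.0403 for *Slit2* and, in IM5 vs IM2, 0.488 for *Robo2*. The other 7 genes, *Dcc* aside, were at -0.25 to 0.69 on the log2 scale in the first, *Slit1* (0.69, SE 0.15, adjusted p = 0.0124) at the upper end, and at -0.02 to 0.33 in the second.

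The grouping of media that the study contrasted, IM3 and IM4 against IM1, IM2 and IM5, uses the same libraries. Here *Robo1* rose 2.69-fold (1.43, SE 0.045, adjusted p = 3.11e-19) and *Slit1* fell 2.32-fold (-1.21, SE 0.097, adjusted p = 3.6e-11), 2 of the 10, beside 4.21% of all genes. In normalized counts the *Robo1* libraries of the 2 sets do not overlap, while those of *Slit1* do, since IM1 lies among IM3 and IM4. With an offset for the trend of each library with GC content, *Slit1* was at -0.94 and no longer past the fold minimum. *Robo2* (1.68-fold higher, 0.75, SE 0.049, adjusted p = 9.59e-13), *Unc5b* (1.67-fold lower, -0.74, SE 0.037, adjusted p = 2.56e-15) and *Neo1* (1.24-fold higher) also had no overlap between the sets in normalized counts. The share of all genes without overlap was not counted, so nothing about these genes as a set is read from it. By edgeR, 10445 of all 20839 genes had an adjusted p of at most 0.01 in this contrast.

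From IM3 to iSLC, the step of forced *Nr5a1* and *Dmrt1*, a Slit ligand gene, a Robo receptor gene and the netrin-1 gene rose together. Of the 10 genes 3 rose and 0 fell, beside 19.2% of all genes. That share is 4011 genes, all of them among the 13477 that had the minimum mean count, as 9 of the 10 genes had. *Ntn1* rose 10.4-fold (3.38, SE 0.11, adjusted p = 4.06e-20), *Robo2* 7.90-fold (2.98, SE 0.078, adjusted p = 8.58e-22) and *Slit2* 6.23-fold (2.64, SE 0.068, adjusted p = 5.47e-22). For each of these genes the lowest iSLC library was above the highest IM3 library, and the values stayed past the thresholds when any of the 6 libraries was left out. With an offset for effective gene length *Robo2* was at 3.25, nearer to the ratio of its TPM levels.

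None of the other 7 genes, their paralogs included, passed the thresholds. *Robo1* was 1.23-fold higher (0.30, SE 0.07, adjusted p = 0.000484), *Slit3* 1.24-fold lower (-0.32, SE 0.06, adjusted p = 3.81e-05) and *Slit1* 1.33-fold lower (-0.42, SE 0.16, adjusted p = 0.0213). Of the netrin receptors, *Neo1* was 1.63-fold higher (0.71, SE 0.046, adjusted p = 1.47e-13) and *Unc5c* 1.60-fold lower (-0.67, SE 0.086, adjusted p = 9.8e-08). *Unc5b* was 1.20-fold higher (0.26, SE 0.056, adjusted p = 0.000176), and its sign turned with a GC offset, to -0.14. *Dcc* went from 0 to 2 counts per library to 69 to 93.

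Marker genes of other cells differed in the same step. The 8 endothelial genes were summed at 158 to 186 TPM in IM3 and 60.3 to 65.9 TPM in iSLC, with *Cdh5* at means of 11.5 and 1.72 TPM and *Tie1* at 7.02 and 0.0567 TPM, while *Emcn* of the same list was higher in iSLC, at 2.33 and 25 TPM. The 6 cardiac muscle genes were at 233 to 465 TPM and 149 TPM, of which *Myl7* (means of 141 and 5.84 TPM) and *Actc1* (123 and 9.34 TPM) were lower in iSLC and *Tnnt2* (67.8 and 130 TPM) higher. The red blood cell genes were at 21.3 to 74.4 and 1.65 to 2.18 TPM. The neuron markers were at 25.2 to 28.1 and 57.7 to 66.5 TPM, of which *Map2* was 46.9 TPM in iSLC while *Tubb3* was lower there than in IM3, at 11.5 against 22.6 TPM. Their part in the rise of *Slit2*, *Robo2* and *Ntn1* was not tested, and none of these lists holds 1 of the 10 genes.

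**Figure D5:**
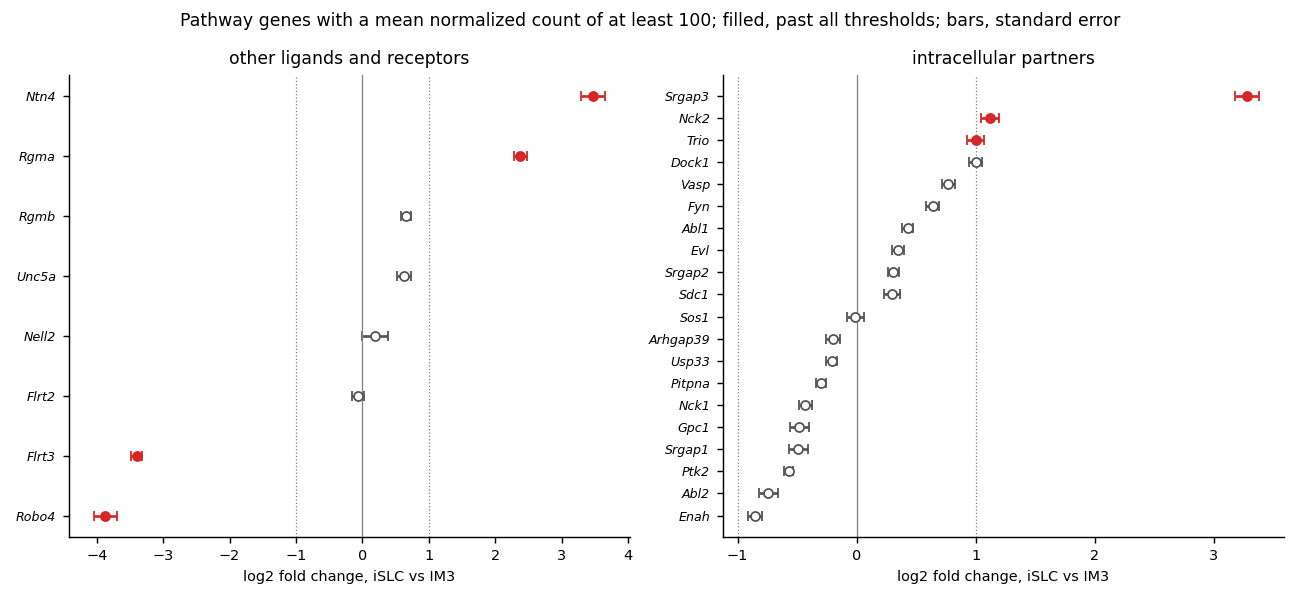
Fitted log2 fold change in iSLC vs IM3 with its standard error for the pathway genes with a mean normalized count of at least 100. The left panel holds 8 other ligands and receptors. The right panel holds 20 partners, titled intracellular although *Gpc1* and *Sdc1* encode cell-surface proteins. Filled red points passed all thresholds. *Ntn4*, *Rgma*, *Srgap3*, *Nck2* and *Trio* rose, and *Flrt3* and *Robo4* fell.

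Other genes of the same pathways were counted from 2 lists. The first held 18 other ligands and receptors, of which 17 were matched and tested (*Ntn3* was not matched). The second held 20 partners, intracellular apart from the cell-surface proteoglycan genes *Gpc1* and *Sdc1*. In iSLC vs IM3, 2 of the 17 rose and 2 fell, beside 19.2% of all genes called. *Ntn4*, a netrin of basement membranes, rose by 3.47, SE 0.18, adjusted p = 1.46e-15 and *Rgma*, a neogenin ligand gene, by 2.38, SE 0.1, adjusted p = 1.58e-17. *Flrt3*, a binding partner of UNC5 and Robo1 (-3.40, SE 0.078, adjusted p = 5.8e-23), and *Robo4*, the endothelial Robo (-3.87, SE 0.17, adjusted p = 3.67e-17), fell, the second beside the lower endothelial sum given above. Of the 20 partners 3 rose and 0 fell, beside the same 19.2%. They were *Srgap3*, a Slit-Robo GTPase activating protein (3.28, SE 0.1, adjusted p = 2.08e-20), the adaptor *Nck2* (1.12, SE 0.073, adjusted p = 2.11e-13) and, at the fold minimum, the exchange factor *Trio* (1.00, SE 0.075, adjusted p = 3.5e-12). The median log2 fold change of the genes with a mean normalized count of at least 100 was 0.41 over 8 of the first list and 0.14 over the 20 of the second, beside 0.30 over the 9 genes described here and -0.04 over all 13477 such genes.

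After M, 3 of the 17 rose in IM1 and 4 in IM3, and 4 and 2 of the 20 partners rose, with 0 falling in either list, beside 15.7% of all genes called in IM1 vs M and 14.9% in IM3 vs M. *Flrt2*, another UNC5 ligand, rose in both, by 4.79, SE 0.11, adjusted p = 1.23e-22 in IM1 and 4.26, SE 0.11, adjusted p = 9.31e-22 in IM3. *Robo4* rose by 3.16, SE 0.13, adjusted p = 6.27e-18 in IM1, where the endothelial sum was also highest, and by 1.59, SE 0.13, adjusted p = 5.78e-11 in IM3. *Ntn4* rose in IM1 alone of the 2 (1.11, SE 0.18, adjusted p = 3.13e-06). *Flrt3* (1.82, SE 0.072, adjusted p = 5.92e-18) and *Unc5a* (1.71, SE 0.12, adjusted p = 1.49e-12) rose in IM3 vs M. Of the partners, *Srgap1* and the kinase gene *Fyn* rose in both media, *Srgap1* by 1.77, SE 0.082, adjusted p = 1.6e-16 and 1.35, SE 0.083, adjusted p = 7.25e-14, and *Srgap3* (1.99, SE 0.11, adjusted p = 4.54e-15) and *Nck2* (1.32, SE 0.074, adjusted p = 1.16e-14) rose in IM1 vs M.

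With Activin A, 2 of the 17 rose and 1 fell in both comparisons, beside 3.80% and 4.09% of all genes called, and they were the same 3 genes. *Ntn4* rose by 2.02, SE 0.19, adjusted p = 1.67e-09 in IM2 and 2.05, SE 0.18, adjusted p = 4.5e-10 in IM5, *Rgma* by 1.01, SE 0.1, adjusted p = 7.75e-09 and 1.14, SE 0.1, adjusted p = 6.34e-10, and *Flrt3* fell, at -1.13, SE 0.07, adjusted p = 1.14e-12 and -1.37, SE 0.071, adjusted p = 2.85e-14. The 1 partner that rose was *Srgap3* in both (1.17, SE 0.1, adjusted p = 5.27e-10 and 1.26, SE 0.097, adjusted p = 5.49e-11). *Ntn4*, *Rgma*, *Flrt3* and *Srgap3* differed in the same direction in iSLC vs IM3, while *Slit1* and *Robo1* had values of the other sign there. Sertoli medium also held Activin A, and IM2 vs IM3 shares the IM3 libraries with iSLC vs IM3, so these are not independent results. The part of Activin A in iSLC was not tested. With RA, *Unc5a* rose (2.00, SE 0.12, adjusted p = 1.97e-13) and *Robo4* (-1.58, SE 0.11, adjusted p = 5.24e-12), *Ntn4* (-1.52, SE 0.19, adjusted p = 1.45e-07) and *Srgap3* (-1.02, SE 0.1, adjusted p = 2.92e-09) fell. From ESC to EpiSC, *Robo4* (-4.16, SE 0.13, adjusted p = 1.93e-19) and the partner *Enah* (-1.09, SE 0.06, adjusted p = 2.64e-14), an actin regulator, fell and 0 genes of either list rose. In IM3 and IM4 against the other media *Flrt3* rose (1.11, SE 0.044, adjusted p = 3.01e-17) and *Ntn4* (-1.84, SE 0.12, adjusted p = 8.34e-13) and *Srgap3* (-1.12, SE 0.065, adjusted p = 7.67e-14) fell. In the CHIR99021 comparisons and the interaction 0 genes of either list were called by edgeR.

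Across the 9 group means of log2 CPM, the patterns of *Robo2* and *Neo1* were the most alike of any pair of the 9 genes other than *Dcc* (Pearson r = 0.96), followed by *Slit3* and *Unc5b* (0.94), *Slit3* and *Unc5c* (0.93) and *Slit2* and *Robo2* (0.91). *Ntn1* had a negative r with each of the other 8, from -0.78 with *Slit1* to -0.09 with *Slit2*. Among the 13476 other genes with a mean normalized count of at least 100, the pattern most like *Unc5c* was that of *Zc4h2* (r = 0.994), then *Mapkapk2* (0.994) and *Id1* (0.993). For *Robo2* it was *Svep1* (0.995), *Nab2* and *Nktr* (0.994 each), for *Slit2* *AU040320* and *Ptprd* (0.989 each) and *Pik3ca* (0.987), and for *Slit1* *Rap2b* (0.981), *Tnfrsf23* (0.965) and *Endod1* (0.962). For *Slit3* it was *Zc3h7b* (0.990), *Pfdn5* (0.989) and *Cap2* (0.988), for *Robo1* *Zfp558* (0.988), *Gm7694* (0.978) and *Zkscan1* (0.975), and for *Ntn1* *Acin1* (0.984), *Fam53b* (0.981) and *Ttyh1* (0.978). *Neo1* was most like *Stx17* (0.996), *Nf1* (0.994) and *Zfp36l1* (0.992), and *Unc5b* most like *BC037034* (0.996), *Dbn1* (0.991) and *Pheta1* (0.990). With Spearman's rho 3 of the 27 named genes remained, 0 of them for *Unc5c*. These correlations rest on 9 points from the same libraries and are a description.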

How the data were processed

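Gene expression was measured by bulk RNA-seq in 9 groups of 3 libraries, grouped by their titles. Per the labels, the submitters' processing notes and the methods, the authors trimmed reads with cutadapt 1.9.1, aligned them with STAR 2.5.2a to GRCm38 and quantified Ensembl transcripts with RSEM 1.3.0. The tables, as deposited, give each gene an expected count (estimated reads, not normalized), TPM and FPKM, both normalized by the authors for effective length and depth. The strand setting of the counting is not given in the sources used here.

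Rounded expected counts were tested with edgeR 4.0.16 (limma 3.58.1, R 4.3.3). Genes were filtered by filterByExpr, libraries were scaled by TMM, and 1 quasi-likelihood model was fitted over all 27 libraries. P-values were adjusted by Benjamini-Hochberg over all 20839 genes tested, and the limits of a call were 0.01 for the adjusted p, 2 for the fold and 100 for the mean normalized count. The floor for a count of 0 was 3 counts and covers counting error only, since reads without molecular identifiers are not independent molecules. The depth was 35923040 to 84876603 expected counts per library. The procedure was tested on simulated data before use. Gene names came from GENCODE M21 for 48435 of 48795 genes (99.26%, holding 99.98% of the counts), and promoter sequences from RefSeq. Likeness of patterns was Pearson's r over group means of log2 CPM with a prior count of 2, for the 3 genes most like each member.

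The 10 genes, the pathway lists and the marker lists were chosen with earlier results of these data known. The 10 genes were named by rule, and from each other pathway list at most 3 called in each direction of a comparison, by fold. *Robo4* in IM3 vs M and *Nck2* in IM1 vs M were added after their values were seen. Alternatives were DESeq2 size factors, the Wald test of DESeq2 1.42.0 with a length offset, offsets for effective length or GC content, other limits, no low-count filter, only the groups compared, a replicate block and leaving out each replicate.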

Additional observations from a re-analysis of the deposited data

How the results depend on the processing

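The number of the 10 genes called stayed within 1.5 times in every comparison with DESeq2 size factors, with a length offset, without the low-count filter, without the count minimum and with an adjusted p limit of 0.05. Without the fold minimum it was 6 in EpiSC vs ESC, 9 in IM1 vs M, 7 in IM3 vs M, 9 in IM3 vs IM1, 8 in IM2 vs IM3, 8 in IM5 vs IM4, 1 in IM4 vs IM3, 2 in IM5 vs IM2, 9 in IM3 and IM4 against the other media and 8 in iSLC vs IM3. In the same order, the counts over all 20839 genes without the fold minimum were 7857, 9940, 9485, 7198, 5430, 6631, 197, 808, 8596 and 10507. With a GC offset, alone or with the replicate block, 1 of the 10 genes was called in IM3 and IM4 against the other media, where *Slit1* (-0.94 and -0.95) was under the fold minimum. With the same 2 settings *Unc5b* in iSLC vs IM3 was at -0.14. The cause was not tested. With Spearman's rho in place of Pearson's r, 3 of the 27 most alike genes were shared. Leaving out a replicate gave 2 to 3 calls in EpiSC vs ESC, 3 to 4 in IM1 vs M and 2 to 3 in IM3 vs IM1, and the main count in the other comparisons (3 in IM3 vs M and iSLC vs IM3, 2 in IM2 vs IM3, IM5 vs IM4 and IM3 and IM4 against the other media, and 0 in IM4 vs IM3, IM5 vs IM2 and the interaction).

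The replicate block changed no count of calls (2 in EpiSC vs ESC, 3 in IM1 vs M, IM3 vs M and iSLC vs IM3, 2 in the other comparisons with calls and 0 in those without). Same-numbered libraries of different groups did not deviate together (mean correlation 0.002, lowest -0.183, against -0.001 for other numbers), so the numbers were not taken to pair the libraries. Of 2160 values for single genes under an alternative, 64 newly passed the limits of that alternative and 2 no longer passed. Only 16 of the 64 came from alternatives that kept the fold minimum, and those of *Robo2* and *Dcc* without the count minimum are among the 16. In all, 26 had the other sign, of which 2, the *Unc5b* values above, had an adjusted p of at most 0.01 and the other 24 one of 0.614 or more. Some differences passed the test in the main model but had an adjusted p above 0.01 in at least 1 alternative, by edgeR or DESeq2. For *Robo2* it reached 0.266 in EpiSC vs ESC, 0.0157 in IM3 vs IM1, 0.301 in IM2 vs IM3, 0.101 in IM5 vs IM4 and 0.488 in IM5 vs IM2. Examples of other genes were *Slit2* in IM3 vs M (0.904) and *Slit1* in IM3 vs IM1 (0.074). Depth limits *Dcc* in all groups, *Unc5c* and *Robo2* in ESC and EpiSC, *Slit3* in ESC, *Slit1* in ESC and M, and *Ntn1* in IM3 and IM4. The *Slit1* rises from M rest on 102 to 131 expected counts per M library.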
